A study of Mus musculus with 3 samples.

Results

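The 10 genes described here are 8 Toll-like receptors, Tlr1, Tlr2, Tlr4, Tlr6, Tlr7, Tlr8, Tlr9 and Tlr13, the lipopolysaccharide co-receptor Cd14 and the adaptor Myd88. They were found by their symbols among 17250 gene names in the deposited tables of a mouse BM transcriptome, and each had 1 row. BM cells were flushed from the femur, tibia, pelvis and humerus of C57BL/6 mice of 6 to 8 weeks (male, by the study's methods) without sorting. The methods name flushed BM cells, whereas a supplementary caption of the study names BM mononuclear cells for the RNA sequencing. The mice had received subcutaneous LECT2, a cytokine that the liver secretes into the blood, at 300 μg per kg daily over 0, 3 or 5 days, and by the methods were killed 4 h after the last dose. The LECT2 was recombinant mouse protein made in CHO cells, and neither the labels nor the methods say whether the mice at 0 days received vehicle or how many mice were pooled. There was 1 library per time point, so no difference has a replicate check and none of the values below comes with a p-value.

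Toll-like receptors recognize conserved molecules of microbes. The heterodimers of TLR2 with TLR1 or TLR6 bind lipopeptides at the cell surface, and TLR4 with its partner MD-2 binds lipopolysaccharide that CD14 hands over. TLR7, TLR8, TLR9 and TLR13 lie in endosomes and sense nucleic acids, and all 8 receptors recruit MyD88, which leads to NF-kB activation and cytokine expression. In the BM these receptors are carried mainly by neutrophils, monocytes, macrophages, dendritic cells and B cells.

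The tables held 15146983 to 15523952 reads on genes per library, so that 1 read on 3000 bases was worth 0.0215 to 0.0220 RPKM, a read count divided by gene length and library total. The 100 most abundant genes took 24.8% of all reads at 0 days but 19.6% and 13.5% at 3 and 5 days. Across genes of 1 RPKM or more in at least 1 of the libraries compared, the median log2 ratio was 0.09 at 3 against 0 days and 0.31 at 5 against 0 days. At 5 against 3 days it was 0.25. With TMM scaling, which sets libraries level on the bulk of genes, these medians were 0.01, 0.01 and 0.03, and all 30 member ratios were lower than with the deposited scaling. Longer genes had higher ratios. Over the receptors, which are 2567 to 4014 bases long in the tables, the trend at their length was 0.34 to 0.58 at 5 against 0 days, so the ratios of the members are also given with the trend removed. In bulk BM, fewer cells of a type and less RNA per cell cannot be told apart.

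The receptors grouped into one that was lower at 5 days (Tlr2), receptors that were higher (Tlr8, Tlr9, Tlr1, Tlr4 and, less than 2-fold, Tlr7 and Tlr6) and one near its starting level on the deposited scaling (Tlr13). Upstream sequences of Tlr8 and Tlr9, the receptors with the highest ratios, and of Tlr2, the one with the lowest, are given here so that the compared loci can be seen side by side. They come from RefSeq (GRCm38.p6), run 5′ to 3′ on the gene's strand, and end before the first annotated transcript base. The capitals mark the single match of each to 5 motifs searched on both strands, with offsets counted from the RefSeq start.
Tlr8 (chrX:167264330-167264579, minus strand): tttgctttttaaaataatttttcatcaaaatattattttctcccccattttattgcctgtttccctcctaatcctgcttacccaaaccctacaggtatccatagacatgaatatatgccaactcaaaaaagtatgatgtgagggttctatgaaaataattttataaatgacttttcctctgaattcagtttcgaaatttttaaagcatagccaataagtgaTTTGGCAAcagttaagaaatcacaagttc
Tlr9 (chr9:106222348-106222597, plus strand): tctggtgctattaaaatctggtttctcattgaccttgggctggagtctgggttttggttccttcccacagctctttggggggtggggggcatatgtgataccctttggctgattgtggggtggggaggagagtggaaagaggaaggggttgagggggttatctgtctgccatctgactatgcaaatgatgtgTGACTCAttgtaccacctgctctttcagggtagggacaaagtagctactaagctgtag
Tlr2 (chr3:83841768-83841858, minus strand): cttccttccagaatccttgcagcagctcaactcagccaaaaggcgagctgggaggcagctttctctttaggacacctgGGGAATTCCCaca
The motifs were GAGGAAGT (PU.1), GGGA and CC with 4 bases between them (NF-kB), TGA and TCA with 1 between (AP-1), TTGC and AA with 2 between (C/EBP), and GAAA repeated after a gap of 2 bases (ISRE, the interferon-stimulated response element). The marked match is to C/EBP from base -29 in Tlr8, to AP-1 from base -58 in Tlr9 and to NF-kB from base -172 in Tlr2, and no marked match overlaps another motif. Over 32851 mouse windows of 250 bases, 9.56% held the C/EBP letters, 6.75% the AP-1 letters and 17.6% the NF-kB letters. PU.1 letters stood in 2.44% and ISRE letters in 2.98% of the windows. A match describes the sequence and does not show that a factor binds there. Leaving out Cd14, which was not looked up, 7 of the genes had an entry in the RefSeq window table, and Tlr4 and Tlr7 had none.

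In the gene annotation (GENCODE M21, GRCm38; the submitters' notes name mm8 for their own processing), Tlr8 (chrX:167242696-167264329) and Tlr7 (chrX:167304929-167330558) lie on the minus strand of chromosome X, 40599 bases apart. Tlr13 (chrX:106143204-106160493) lies on the plus strand of the same chromosome. Tlr1 (chr5:64924679-64933563) and Tlr6 (chr5:64952031-64960097) lie 18467 bases apart on chromosome 5 and are close paralogs, so reads could have been split between them. Tlr2 (chr3:83836272-83841767), Tlr4 (chr4:66827584-66930284) and Tlr9 (chr9:106222598-106226883) overlap no other annotated gene. Myd88 (chr9:119335934-119341411) overlaps 2 annotated genes, Slc22a14 and Acaa1a, the latter on the opposite strand over 1736 bases. The library kit does not mark strand, so reads of the overlaps cannot be told apart. Acaa1a held 360, 368 and 379 reads at 0, 3 and 5 days.

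Log2 ratios here and below, and the counts of genes past 2-fold, add 0.1 RPKM to each value, while ratios given as folds or percentages with an interval are of the plain values. At 3 against 0 days 4 of the 10 genes were at least 2-fold higher (Tlr4, Tlr6, Tlr8 and Tlr9), beside 4.08% of 11325 genes with at least 1 RPKM in either library. Tlr6 passed with a log2 ratio of 1.12. Tlr1 missed with 0.997 only through the added 0.1 RPKM, its plain ratio being 2.02 (1.65 to 2.48), and with 0.01 RPKM added 5 genes passed. With 1 RPKM added, or with a minimum of 5 RPKM, 2 passed. None of the 10 was at least 2-fold lower, beside 2.41% of all genes. At 5 against 0 days 4 were at least 2-fold higher (Tlr1, Tlr4, Tlr8 and Tlr9), beside 15.5% of 11497 genes. Another 2 (Tlr2 and Cd14) were at least 2-fold lower, beside 5.91%. This background depends on the scaling: with TMM scaling 816 of 11446 genes were higher and 1162 lower, in place of 1786 and 680 of 11497, and the members numbered 3 higher (without Tlr4) and 2 lower. At 5 against 3 days no member was at least 2-fold higher, beside 1.95% of 11375 genes, and Tlr2 and Cd14 were at least 2-fold lower, beside 3.45%. All 10 genes reached 1 RPKM in at least 1 library of every comparison, Tlr8 only through the libraries of 3 and 5 days. The comparisons share libraries and are not independent of each other.

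**Figure D1:**
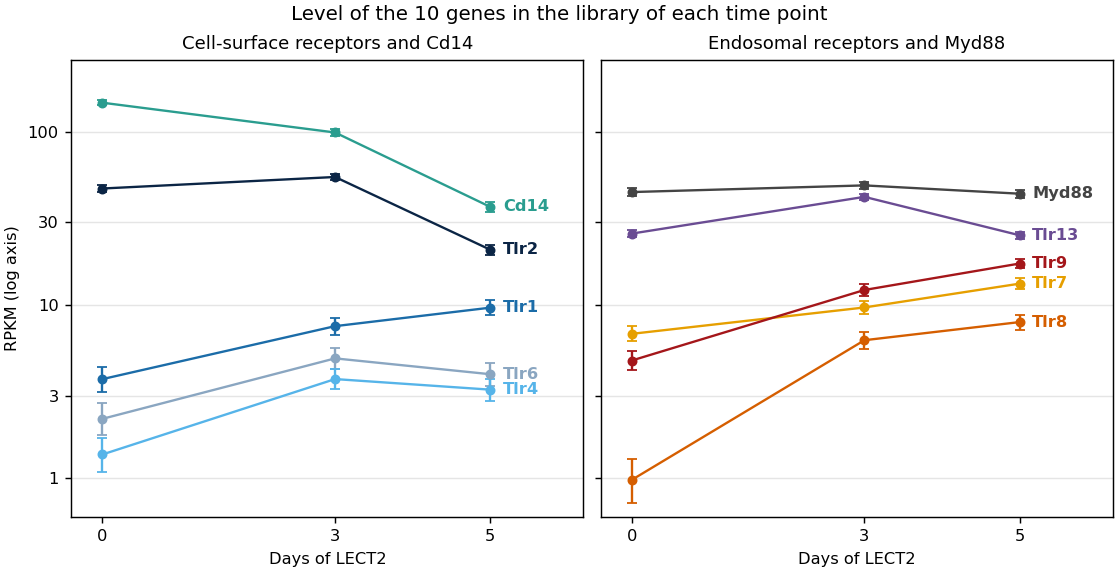
RPKM (log axis) of the 10 genes in the library of 0, 3 and 5 days of LECT2, with surface receptors and Cd14 on the left and endosomal receptors and Myd88 on the right. Each point is 1 library and bars are exact 95% Poisson intervals, which cover counting error only. Cd14 runs from 147.5 down to 36.9 RPKM, while Tlr8 runs from 0.979 up to 7.98 RPKM.

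Cd14 encodes a GPI-anchored protein that carries lipopolysaccharide to TLR4. It was the most abundant of the 10 genes at 0 days, with 3428 reads (147.5 RPKM), and had 2251 reads (99.3 RPKM) at 3 days and 858 reads (36.9 RPKM) at 5 days. Each later library was thus below the one before. At 3 days 67.3% of the starting level was left, with a 95% exact (Clopper-Pearson) interval of 63.8 to 71.0% that covers counting error only. At 5 days 25.0% (23.2 to 27.0%) of the starting level was left, and only 1.64% of all genes tested had a log2 ratio as low. The larger step came between 3 and 5 days, where the level dropped to 37.2% (34.4 to 40.3%). At its length of 1497 bases the length trend was close to 0 (0.01), and the log2 ratio of 5 against 0 days was -1.99 as deposited, -2.30 with TMM scaling and -2.01 with the trend removed.

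Tlr2 encodes the shared chain of the lipopeptide receptors and was the most abundant receptor at 0 and 3 days. It had 2103 reads (47.1 RPKM) at 0 days, 2392 reads (54.9 RPKM) at 3 days and 932 reads (20.9 RPKM) at 5 days. The library of 5 days stood below both others, which were close to each other. Against 0 days Tlr2 was 1.17-fold (1.10 to 1.24) at 3 days, and 44.3% (41.0 to 47.9%) of its starting level was left at 5 days. The log2 ratio of 5 against 0 days was -1.17, and was -1.48 with TMM scaling and -1.57 with the length trend removed.

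The partners of Tlr2 did not share this course. Tlr1 had 149 reads (3.74 RPKM) at 0 days, 294 (7.56 RPKM) at 3 days and 385 (9.67 RPKM) at 5 days, a ratio of 2.02 at 3 days and 2.59 (2.13 to 3.15) at 5 days. Tlr6 had 89 reads (2.21 RPKM), 194 (4.93 RPKM) and 161 (3.99 RPKM), and its ratio was 2.23 (1.73 to 2.90) at 3 days and 1.81 (1.39 to 2.37) at 5 days. Both were lowest at 0 days, unlike Tlr2. Under length correction Tlr1 kept a log2 ratio of 1.01 at 5 days and Tlr6 one of 0.48.

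Tlr4, the signalling receptor for lipopolysaccharide, was among the least abundant of the genes in every library. It had 82 reads (1.37 RPKM) at 0 days, 218 (3.74 RPKM) at 3 days and 194 (3.25 RPKM) at 5 days. The libraries of 3 and 5 days both stood above that of 0 days, and their own ratio of 0.869 had an interval that included 1 (0.712 to 1.06). Against 0 days, Tlr4 was 2.72-fold (2.10 to 3.56) at 3 days and 2.37-fold (1.82 to 3.10) at 5 days. The ratio at 5 days was under 2-fold after TMM scaling (log2 0.89) and after removal of the length trend (log2 0.63), whereas that at 3 days stayed above it (1.31 and 1.10). Cd14 and Tlr4 went opposite ways, and the ratio of their RPKM values was 107 at 0 days, 26.5 at 3 days and 11.4 at 5 days. That ratio does not depend on the scaling of the libraries. It is not free of the length trend, which at 5 against 0 days was 0.01 for Cd14 and 0.56 for Tlr4. With the trend removed, their log2 ratios were -2.01 and 0.63.

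Among the endosomal receptors, Tlr8, a sensor of single-stranded RNA and its breakdown products, had the highest ratio. It had 48 reads (0.979 RPKM) at 0 days, 300 (6.27 RPKM) at 3 days and 391 (7.98 RPKM) at 5 days. Most of the difference was present by 3 days, with a ratio of 6.41 (4.71 to 8.88), and 5 days gave 8.15 (6.03 to 11.2). Its log2 ratio of 5 against 0 days, 2.90, was at or above that of 99.8% of the genes tested, and was 2.61 with TMM scaling and 2.44 with the length trend removed. The count at 0 days is small, which is why its intervals are the widest of the 10.

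Tlr9, the receptor for unmethylated CpG DNA, had 258 reads (4.79 RPKM), then 643 (12.2 RPKM) and 936 (17.4 RPKM). It was higher in each later library. The ratio was 2.55 (2.21 to 2.96) at 3 days and 3.63 (3.16 to 4.18) at 5 days, and after removal of the length trend the log2 ratios were 1.10 and 1.33. Tlr7, a second receptor for single-stranded RNA and the genomic neighbour of Tlr8, had 397 reads (6.83 RPKM), 550 (9.69 RPKM) and 773 (13.3 RPKM). It had the order of Tlr9 with smaller ratios of 1.42 (1.25 to 1.62) at 3 days and 1.95 (1.72 to 2.20) at 5 days. At 5 days its log2 ratio was 0.95 where the trend at its length was 0.55.

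Tlr13, which senses bacterial ribosomal RNA, was the most abundant endosomal receptor in every library. It had 1613 reads (25.9 RPKM) at 0 days, 2565 (42.2 RPKM) at 3 days and 1577 (25.3 RPKM) at 5 days, so that the library of 3 days stood apart. The ratio was 1.63 (1.53 to 1.74) at 3 days and 0.978 (0.912 to 1.05) at 5 days. The log2 ratio of 5 against 0 days was -0.03 as deposited, but -0.34 with TMM scaling and -0.61 with the length trend removed. From 3 to 5 days the level dropped to 60.0% (56.3 to 63.9%). At 5 against 3 days the log2 ratio of -0.73 became -1.03 with the length trend removed, which made Tlr13 the third of the genes at least 2-fold lower in that comparison.

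Myd88, the adaptor that all 8 receptors use, had 1359 reads (45.0 RPKM) at 0 days, 1449 (49.1 RPKM) at 3 days and 1329 (44.0 RPKM) at 5 days. Of the 10 genes it had the smallest ratio of its highest to its lowest library. Its ratio was 1.09 (1.01 to 1.18) at 3 days and 0.979 (0.907 to 1.06) at 5 days, where the log2 ratio was -0.03 as deposited, -0.34 with TMM scaling and -0.19 with the length trend removed.

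**Figure D2:**
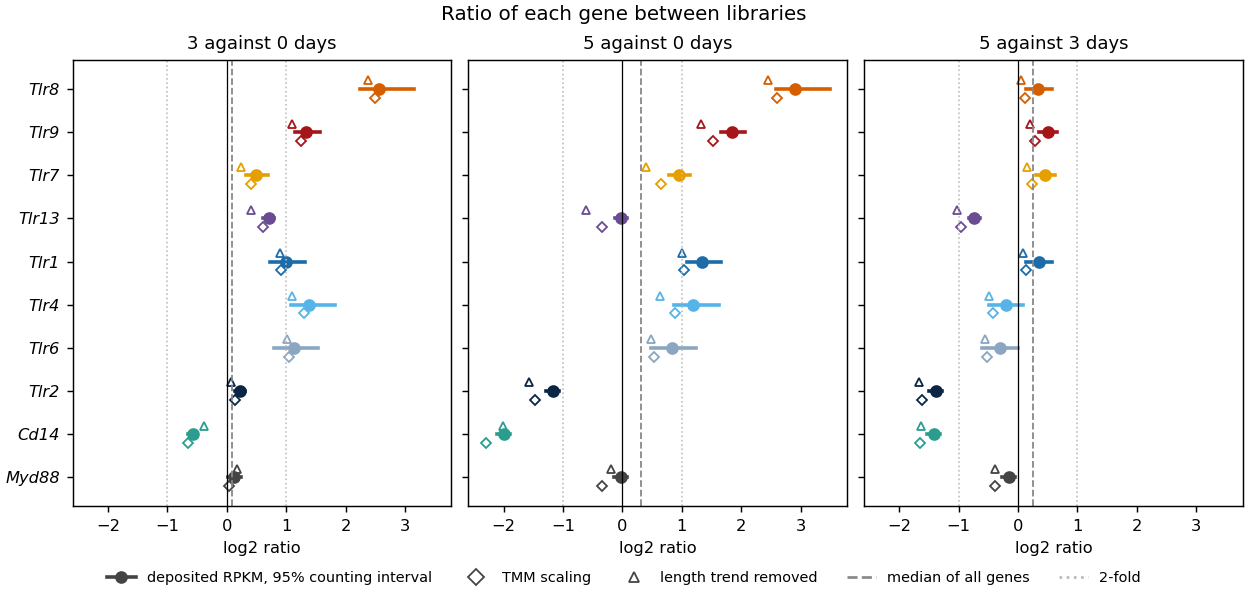
log2 ratios of the 10 genes at 3 against 0, 5 against 0 and 5 against 3 days, from the deposited RPKM (filled circles, bars are 95% counting intervals), with TMM scaling (diamonds) and with the length trend removed (triangles). The dashed line is the median of all genes (0.09, 0.31 and 0.25) and the dotted lines mark 2-fold. At 5 against 0 days Tlr1, Tlr8 and Tlr9 lie above 2-fold and Tlr2 and Cd14 below it under all 3 computations.

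Per length, the order of the 10 genes at 0 days was Cd14, Tlr2, Myd88, Tlr13, Tlr7, Tlr9, Tlr1, Tlr6, Tlr4 and Tlr8. The counting intervals of 3 neighbouring pairs in this order overlapped (Tlr2 with Myd88, Tlr9 with Tlr1, and Tlr4 with Tlr8), and the spread between mice is unknown. At 5 days the order was Myd88, Cd14, Tlr13, Tlr2, Tlr9, Tlr7, Tlr1, Tlr8, Tlr6 and Tlr4, with overlap between Tlr1 and Tlr8 and between Tlr6 and Tlr4. Cd14 went from a level above 96.8% of the genes with reads at 0 days to one above 85.3% at 5 days, and Tlr8 from 31.2% to 54.7%.

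On the deposited scaling the 8 receptors summed to 92.9, 141.6 and 101.8 RPKM at 0, 3 and 5 days. The share of each receptor within a library, unlike these sums, does not depend on how libraries are scaled. The shares are not free of the length trend, which ranged from 0.34 to 0.58 over the receptors at 5 against 0 days. The 4 endosomal receptors held 48.9% of the receptors' reads at 0 days (exact 95% interval 47.4 to 50.3%), 56.7% at 3 days (55.6 to 57.9%) and 68.7% at 5 days (67.5 to 70.0%). Of the summed RPKM, the share of Tlr2 was 50.7%, 38.8% and 20.5% in the same order, while Tlr7, Tlr8 and Tlr9 together held 13.6%, 19.9% and 38.0%. The share of Tlr13 stayed between 24.9% and 29.8%. There was 9.84 times as much Tlr2 as Tlr9 RPKM at 0 days, 4.49 times at 3 days and 1.20 times at 5 days. These shares come from the same ratios as above and follow from them.

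**Figure D3:**
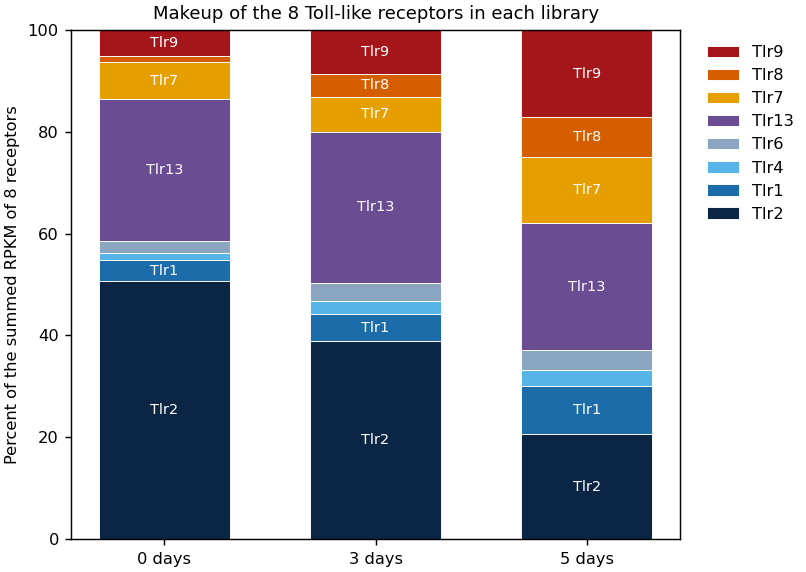
Percent of the summed RPKM of the 8 receptors held by each receptor in the libraries of 0, 3 and 5 days (1 library each). Tlr2 takes 50.7% of the first bar and 20.5% of the last, and the segments of Tlr7, Tlr8 and Tlr9 widen from 13.6% to 38.0%.

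The genes also differ in length. Cd14 (1497 bases) and Myd88 (1947 bases) are shorter than the median of all genes tested at 5 against 0 days (2683 bases), while 6 of the 8 receptors are longer. At 5 against 0 days, 6 members stood above the trend at their own length and 4 below it (Tlr2, Tlr13, Cd14 and Myd88). At 3 against 0 days 9 stood above it and Cd14 below.

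**Figure D4:**
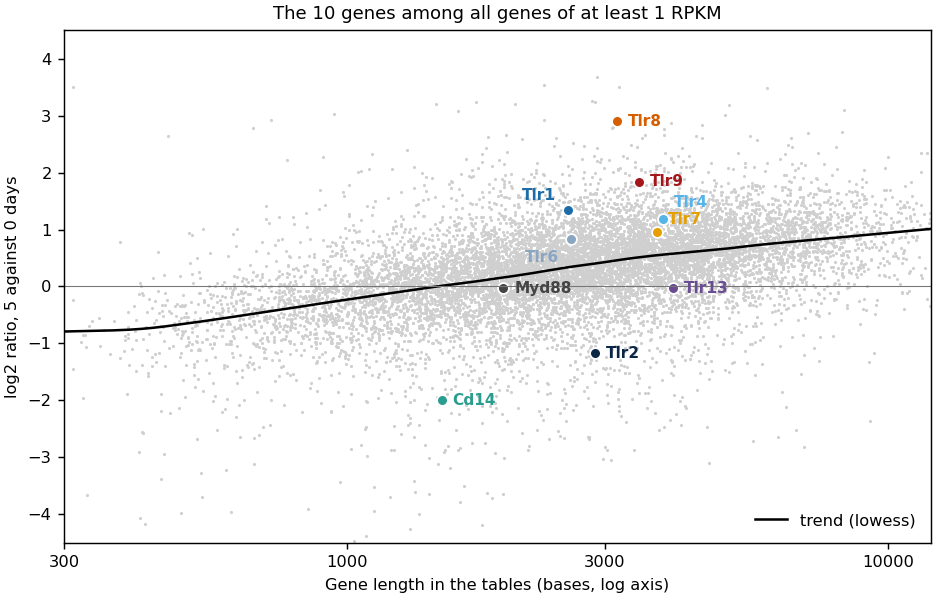
log2 ratio of 5 against 0 days by gene length in bases (log axis) for the genes with at least 1 RPKM in either library (grey points), with the lowess trend (black line) and the 10 genes in colour. Tlr8, Tlr9 and Tlr1 lie well above the line, Tlr4, Tlr7 and Tlr6 closer to it, and Tlr2 and Cd14 below it.

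Markers of other blood cells moved between the same libraries. Of 12 late neutrophil markers 11 had at least 1 RPKM, and all 11 were at least 2-fold lower at 5 against 0 days (median log2 ratio -1.81), beside 5.91% of all genes, and none at 3 against 0 days, beside 2.41% (median -0.12, and 0.13 with the length trend removed). Their summed RPKM was 150237, 116374 and 41570 in the libraries of 0, 3 and 5 days. The calprotectin genes S100a8 and S100a9 had log2 ratios of -1.88 and -2.14 at 5 against 0 days, and Retnlg, a resistin-like secreted protein gene, had -3.96. Tlr2 and Cd14, with log2 ratios of -1.17 and -1.99 at 5 days, also had their larger step after 3 days, and the part of the neutrophil markers' cells in it was not tested. Of 12 monocyte and macrophage markers with a row 8 were at least 2-fold higher at 5 days (median 1.27), beside 15.5% of all genes, and 2 at 3 days (median 0.71), beside 4.08%. With TMM scaling 5 of the 12 were at least 2-fold higher at 5 days, beside 816 of 11446 genes. Their summed RPKM was 1352, 1714 and 2283, and F13a1, a coagulation factor chain of monocytes, went from 72.0 to 365 RPKM. Their part in the levels of Tlr1, Tlr4, Tlr7, Tlr8 and Tlr9 was not tested. No B cell marker of 8 passed 2-fold at 5 days, beside 15.5% of all genes higher and 5.91% lower (summed RPKM 1928, 1592 and 1391). Their median was -0.20, and was -0.50 with TMM scaling and -0.44 with the length trend removed. Of 7 plasmacytoid dendritic cell markers, Bst2 and Cd209d were at least 2-fold lower, beside 5.91% of all genes, with summed RPKM of 476, 365 and 386. The median of the 7 was -0.42, and was -0.72 with TMM scaling and -0.92 with the length trend removed. With that trend removed 1 of the 7 was at least 2-fold lower, beside 875 of 11497 genes. B cells and plasmacytoid dendritic cells are known for TLR7 and TLR9, whose genes were 1.95-fold and 3.63-fold at 5 days. The part of these cells in those levels was not tested. No marker of these lists was without reads in any library.

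Around the receptors, 8 genes of partners were tested. At 5 against 0 days 1 was at least 2-fold higher, Cd180, which encodes a receptor-like protein that pairs with the product of Ly86, and none was lower, beside 5.91% of all genes. On the deposited scaling the higher share of 12.5% lay near the 15.5% of all genes that were higher. With TMM scaling 1 of the 8 was higher, beside 816 of 11446 genes, and with the length trend removed 2 were, beside 581 of 11497. Cd180 had 13.5, 33.1 and 41.4 RPKM at 0, 3 and 5 days. Lbp, the lipopolysaccharide binding protein that loads CD14, had 27.8, 38.4 and 46.1 RPKM. Itgam and Itgb2, the chains of complement receptor CR3, were highest at 3 days, with 165, 269 and 160 RPKM for Itgam and 271, 401 and 273 RPKM for Itgb2. The median log2 ratio of the partners was 0.09, beside 0.31 for all genes.

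Chaperones and trafficking proteins that bring receptors to the surface or the endosome, and the proteases that cleave the endosomal receptors, formed a list of 10 tested genes. In it none was at least 2-fold higher at 5 against 0 days, beside 15.5% of all genes, and 1 was lower, the protease gene Ctsl (42.8, 26.1 and 20.7 RPKM), beside 5.91%. The median log2 ratio was 0.16, beside 0.31 for all genes. Unc93b1, which escorts the endosomal receptors out of the endoplasmic reticulum, had 210, 229 and 255 RPKM at 0, 3 and 5 days. Hsp90b1, the chaperone that folds most of the receptors, had 396, 328 and 401 RPKM, and Ap3b1, a subunit of a sorting adaptor, had 23.2, 31.3 and 36.4 RPKM.

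Of the adaptors other than Myd88, 4 were tested and 2 were at least 2-fold higher at 5 against 0 days, beside 15.5% of all genes. Ticam2, the bridge from TLR4 to the TRIF pathway, had 3.06, 6.47 and 10.6 RPKM, and Pik3ap1, which links the receptors to phosphoinositide 3-kinase, had 22.0, 48.0 and 57.1 RPKM. Tirap, which brings MyD88 to TLR2 and TLR4, had 12.2, 15.0 and 10.5 RPKM. Among 18 kinases and ubiquitin ligases only Ikbke was at least 2-fold higher (8.39, 14.4 and 21.6 RPKM), beside the same 15.5%, and the median was 0.44. Irak1, the kinase recruited by MyD88, had 40.8, 38.4 and 52.7 RPKM. None of 5 transcription factors passed 2-fold, beside 15.5% of all genes higher and 5.91% lower, and Irf8 had 111, 113 and 172 RPKM. Their median was 0.60, and was 0.30 with TMM scaling and 0.10 with the length trend removed. Genes such as Irf3 and Irf5, named after their values were seen, had 4 to 34 reads in these tables and were not counted. A low value here does not show absence, since Csf3r, the G-CSF receptor gene that neutrophils use (also named after its values were seen), had only 20 to 57 reads.

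Of 12 inhibitors of the pathway tested, 5 were at least 2-fold lower at 5 against 0 days, beside 5.91% of all genes, and none was higher, beside 15.5%. These were Nfkbia (991, 401 and 172 RPKM), which encodes the inhibitor of NF-kB and is itself induced by NF-kB, Nfkbiz (188, 136 and 33.8 RPKM), Dusp1 (388, 430 and 164 RPKM), Tnfaip3 and Zc3h12a. Tnfaip3, Zc3h12a, Irak3 and Tollip were named after their values were seen. Nfkbiz encodes a nuclear regulator of NF-kB, Dusp1 a phosphatase of MAP kinases, Tnfaip3 the ubiquitin-editing protein A20 and Zc3h12a an RNase that degrades cytokine mRNA. The other 7 were within 2-fold. Among them Irak3 and Tollip had log2 ratios of 0.79 and 0.26.

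Target genes of the receptors had the lowest ratios of the pathway. Of 14 tested, 11 were at least 2-fold lower at 5 against 0 days, beside 5.91% of all genes, and none was higher, with a median of -3.27 beside 0.31 for all genes. At 3 against 0 days 5 of 14 were lower, beside 2.41%, and the median was -0.69. After removal of the length trend 2 of 14 were lower at 3 days (median -0.52), beside 205 of 11325 genes. At 5 days 11 of 14 still were, beside 875 of 11497. The chemokine genes Cxcl2 (379, 192 and 18.1 RPKM), Ccl3 (835, 534 and 269 RPKM), Ccl4 (594, 199 and 68.5 RPKM) and Cxcl1 (176, 102 and 5 reads) were all lower in each later library. Several of these genes came up in earlier results of these data, so their direction is not independent evidence. Over the 64 tested genes of the pathway without the 10 members and the targets, 6 were at least 2-fold higher and 6 lower. These were 9.38% each, beside 15.5% and 5.91% of all genes. With TMM scaling 5 were higher and 6 lower, beside 816 and 1162 of 11446 genes. With the length trend removed 5 were higher and 6 lower, beside 581 and 875 of 11497. The median of the 64 was 0.29. The 8 receptors had a median of 1.07. After removal of the length trend, which brings the median of all genes to 0.00, these medians were -0.19 and 0.55, and with TMM scaling -0.02 and 0.77.

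**Figure D5:**
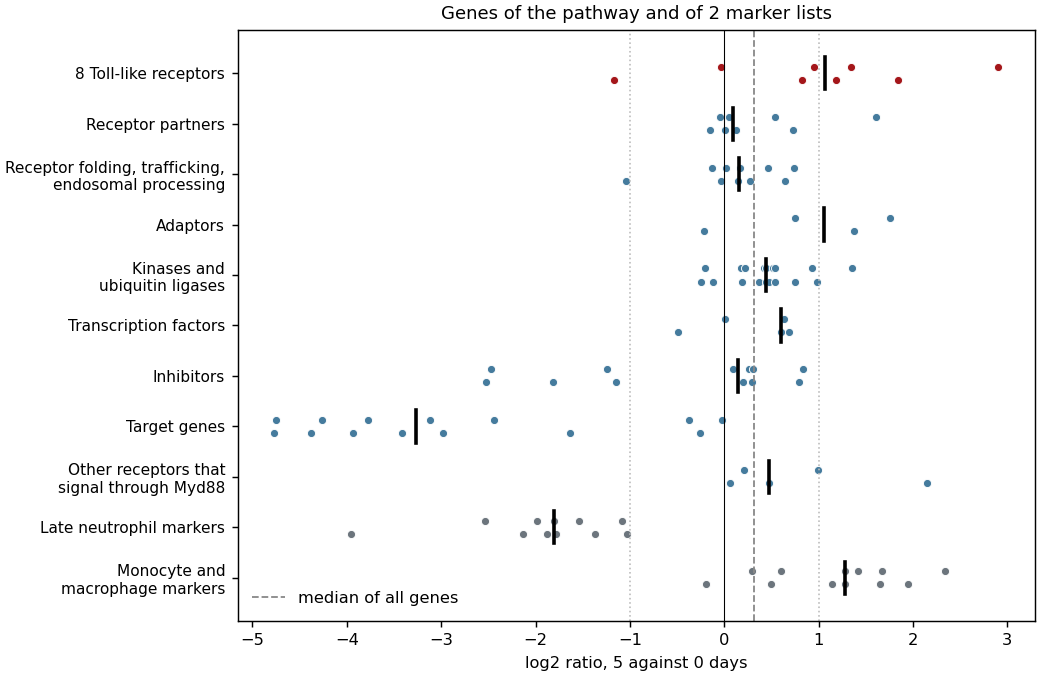
log2 ratio of 5 against 0 days for the genes of each list with at least 1 RPKM in either library; each point is 1 gene, black bars are medians, the dashed line is the median of all genes (0.31) and dotted lines mark 2-fold. The receptors (median 1.07), the adaptors (1.06) and the monocyte and macrophage markers (1.27) lie to the right, and the target genes (median -3.27) and late neutrophil markers (-1.81) to the left.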

How the data were processed

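One poly(A) RNA-sequencing library per time point (TruSeq RNA kit, Illumina HiSeq) was analysed. The authors deposited tables of pairwise comparisons with read counts per gene, gene length and RPKM. The methods name Cufflinks, the submitters' notes mm8, and the aligner is not given in the sources used here. The deposited RPKM equalled count divided by gene length and by the reads on all listed genes, within 1%, except in 18 rows at 0 days and 14 at 3 days. Genes without reads, listed by the authors at 0.01 RPKM, were set to 0. The tables also hold the authors' log2 ratios, P values and false discovery rates, which were not used. Where a symbol was repeated, only its row of highest mean RPKM entered.

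Log2 ratios, and the counts of genes past 2-fold, used log2(RPKM + 0.1), which understates changes of low genes. Folds and percentages are plain RPKM ratios without this pseudocount, with exact 95% intervals (Clopper-Pearson) from the counts. These cover counting error only, as PCR copies were not told apart by molecular identifiers. Genes past 2-fold were counted where either library reached 1 RPKM. TMM factors came from edgeR 4.0.16 and size factors from DESeq2 1.42.0, and the lowess trend on log10 length (span 0.3) from statsmodels 0.14.6. Other computations used Python 3.11.15, pandas 2.3.3, numpy 2.4.6 and scipy 1.17.1. The steps were tested on simulated counts. Members and lists were chosen with earlier results of these data known. Genes outside the 10 were named, unless said otherwise, from a pool that holds for each list the 3 genes with the highest mean RPKM and the 2 with the largest ratio at 5 against 0 days among those with a mean of at least 5 RPKM, and not all of the pool is described. A planned comparison of the receptors' protein sequences was not made, since no protein table was used here, and Cd14 is given without position or sequence.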

Additional observations from a re-analysis of the deposited data

How the results depend on the processing

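With 1 library per time point the depth sets only the counting error, and the spread between mice is unknown. No paired analysis was possible because each group is 1 library and the labels carry no shared replicate numbers. For the same reason no library could be left out. No ratio of the 10 genes changed sign under any of the 7 alternatives tried on it. Of these, the sum of all rows could not change any ratio, as each of the 10 genes has 1 row. Of the 30 ratios, 13 moved by more than the longer arm of their counting interval under TMM scaling, 13 under median-of-ratios scaling, 9 with scaling by the reads outside the 100 most abundant genes, 21 with the length trend removed and 2 with a pseudocount of 1. None moved with a pseudocount of 0.01. Medians of lists were less stable. At 5 against 0 days those of the receptor partners (0.09), the trafficking list (0.16) and the inhibitors (0.15) were -0.22, -0.15 and -0.16 with TMM scaling and -0.07, -0.07 and -0.52 with the length trend removed, which also took the kinases from 0.44 to -0.14. TMM scaling took the megakaryocyte markers from 0.05 to -0.25.

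The count of members at least 2-fold higher at 3 against 0 days (4) was 5 with a pseudocount of 0.01, where Tlr1 was added, 2 with a pseudocount of 1 and 2 with a minimum of 5 RPKM. With a threshold of 4-fold, 1 member (Tlr8) was higher at 3 days and 1 at 5 days against 0 days, and 0 were lower at 5 days against 0 or against 3 days. The log2 ratio of Cd14 at 5 against 0 days, -1.99, fell just short of 4-fold on the deposited scaling, and was -2.30, -2.29 and -2.20 under the 3 other scalings and -2.01 with the length trend removed.

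The counts over all genes depended more on the settings. TMM scaling turned the 1786 higher and 680 lower genes at 5 against 0 days into 816 higher and 1162 lower, and left 66 higher at 5 against 3 days in place of 222. Median-of-ratios scaling gave 842, 1141 and 68 for these counts. Without the 100 most abundant genes, 1086 were higher at 5 against 0 days and 115 at 5 against 3 days. With the length trend removed, 293 were higher at 3 against 0 days, 581 at 5 against 0 days and 75 at 5 against 3 days. A pseudocount of 1 gave 190 higher and 120 lower at 3 against 0 days, 1140 higher at 5 against 0 days and 52 higher at 5 against 3 days. A minimum of 5 RPKM gave 236 higher and 118 lower at 3 against 0 days, 421 lower at 5 against 0 days, and 94 higher and 258 lower at 5 against 3 days. With no minimum, 830 were higher and 688 lower at 3 against 0 days, 1180 lower at 5 against 0 days, and 578 higher and 717 lower at 5 against 3 days. At 4-fold, 36 were higher and 33 lower at 3 against 0 days, 153 and 186 at 5 against 0 days, and 13 and 105 at 5 against 3 days.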

Other observations

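Myd88 also serves the receptors of the interleukin-1 and interleukin-18 family. Of 5 such genes tested, 1 was at least 2-fold higher at 5 against 0 days, beside 15.5% of all genes, and none was lower, beside 5.91%. The median log2 ratio was 0.47 beside 0.31 for all genes, and was 0.16 with TMM scaling and 0.15 with the length trend removed. The higher gene, Il1rl2, which encodes a receptor for interleukin-36 and was named after its value was seen, had 17, 36 and 86 reads at 0, 3 and 5 days. Il18rap, the accessory chain of the interleukin-18 receptor, had 11.9, 24.3 and 16.5 RPKM, so that its highest value was at 3 days, as for Tlr13. Il1rap, the accessory chain shared by interleukin-1 and interleukin-33 receptors, had 4.07, 6.84 and 8.20 RPKM. It missed 2-fold at 5 against 0 days only through the added 0.1 RPKM.

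Of the other 4 Toll-like receptors, Tlr5 and Tlr12 reached 1 RPKM in a library. Tlr5, the flagellin receptor, had 41, 188 and 94 reads at 0, 3 and 5 days (0.823, 3.87 and 1.89 RPKM). Tlr3, the receptor for double-stranded RNA that signals without Myd88, had 5, 24 and 33 reads. Tlr12 had 141, 113 and 141 reads (2.86, 2.35 and 2.86 RPKM), a level above that of Tlr4, Tlr6 and Tlr8 at 0 days, and Tlr11, also named after its values were seen, had 1, 4 and 17.

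Among 8184 genes of mean 5 RPKM or more, the gene nearest to Tlr13 by the Euclidean distance of the log2 ratios at 3 and 5 days was Itgam (distance 0.016; ratios 0.71 and -0.05), followed by Kctd12. Nearest to Cd14 were Rnu1a1 (distance 0.047; ratios -0.53 and -2.01) and Hba-a1, an alpha globin gene (distance 0.10). Nearest to Myd88 were Abi3 and Gpi1 (both at 0.01), and nearest to Tlr4 were Rrm2b (0.081) and Ly75 (0.14). Such distances rest on 2 ratios over 3 libraries and share the library of 0 days.

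Markers of other cell types were read in the same way. At 5 against 0 days 15.5% of all genes were at least 2-fold higher and 5.91% lower, and at 3 against 0 days 4.08% and 2.41%. Negative log2 ratios at 3 against 0 days were held by 4862 of 11325 genes. All 5 megakaryocyte markers had negative log2 ratios at 3 against 0 days (median -0.89; 2 at least 2-fold lower), whereas none passed 2-fold at 5 days (median 0.05). All 7 T and NK cell markers also had negative ratios at 3 days (median -0.71; 2 at least 2-fold lower), and at 5 days 1 was at least 2-fold lower, Cd3d (median -0.12). Of 6 erythroid markers 2 were at least 2-fold lower at 5 days, both globin genes (median -0.51), and none at 3 days (median -0.12, and 0.20 with the length trend removed). Of 5 promyelocyte markers 1 was at least 2-fold higher at 5 days, Mpo (435, 581 and 1237 RPKM; median of the list 0.45). None was at 3 days (median -0.17, and 0.21 with the length trend removed). With TMM scaling 3 erythroid, 2 T and NK cell and 1 megakaryocyte marker were at least 2-fold lower at 5 days, beside 1162 of 11446 genes. The medians of the erythroid and promyelocyte lists were then -0.81 and 0.14. With the length trend removed 1 T and NK cell and 1 megakaryocyte marker were at least 2-fold lower at 3 days, beside 205 of 11325 genes.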
